A study of Homo sapiens with 8 samples.

Results

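The 10 genes described here are members of the BCL2 family, whose proteins decide whether a cell keeps its mitochondria intact or opens them and dies by apoptosis. They were taken by symbol from a list of 10, and all 10 were found among the 23710 gene symbols counted in each RNA-seq library. BCL2, BCL2L1, BCL2A1 and MCL1 form the pro-survival side (4 genes), and BCL2L11, BID, BAK1, BAD, BIK and BMF the pro-death side (6 genes). RNA came from a human lymphoblastoid cell line, a B cell culture immortalized with Epstein-Barr virus, kept in RPMI medium. The 4 groups of 2 libraries were control cells, cells at 24 h of treatment with hexavalent chromium at 5 µM, and cells 3 days and 7 days post treatment. The cells of the 3 day and 7 day groups had the same exposure, 5 µM for 24 h. The sample labels count the days from the treatment, whereas the series text counts time from the onset of exposure, so the start of the day count is uncertain. All groups come from a single cell line, and the labels call the 2 libraries of a group biological replicates without saying whether they were separate cultures. The p-values therefore measure the spread between these libraries, which may be partly technical. The control libraries predate the exposure, and unexposed cultures of the later times were not analysed here, so chromium and time in culture cannot be told apart.

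Pro-survival members hold the pro-death members in check by binding a short helical segment that all BCL2 proteins share, called the BH3 domain. BAK1 and its relative BAX form the pores in the outer mitochondrial membrane, while BCL2L11 (BIM), BID, BAD, BIK and BMF are BH3-only proteins that neutralize the survival proteins or activate the pore formers. Many of these proteins are controlled after translation, by phosphorylation, cleavage or degradation, which RNA counts do not show. Alternative transcripts of BCL2L1, MCL1 and BCL2L11 can encode proteins of differing activity, and counts per gene symbol do not separate them. In B cells immortalized by Epstein-Barr virus, BCL2A1 is known as a gene switched on by NF-kB, and MCL1 and BCL2 are abundant survival factors.

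Total gene counts ranged from 9478459 to 11110830 per library, and the 10 members took 17006 to 25596 of them, or 0.167% to 0.256%. All 10 members passed the filter on low counts, which left 12536 genes for testing. Reads counted under no feature made up 36.5% to 51.5% of a library. Replicate 1 at 3 days (39.4%) and at 7 days (36.5%) lay below the other 6 libraries in that share, and in them the 20 highest genes took 12.5% of gene counts against 8.88% to 9.65% elsewhere. Levels are given in CPM, which are counts divided by the library's total after adjustment with edgeR's TMM factors, on the customary scale. The labelled cell type was checked against its markers, and 10 of 10 B cell markers reached 10 CPM in at least 1 library, with a median of 90.1 to 156 CPM. Of the markers of other cells, 0 of 9 for T and NK cells, 1 of 8 for myeloid cells (ITGAM) and 0 of 8 for stromal or epithelial cells reached 10 CPM, and CD3D, CD3G, CD8A, S100A8, S100A9 and DCN were at 0 in every library.

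The highest RNA levels were those of 3 of the 4 survival genes, and the other, BCL2L1, lay among the death genes. Per kilobase of exon, MCL1 stood highest, with a median level of 359 CPM per kb over the 8 libraries and a range of 299 to 402. BCL2A1 followed at 97.2 (56.6 to 171), and BCL2 at 26.0 (18.7 to 35.3). The ranges of MCL1 and BCL2A1 did not overlap with that of the gene next in the order.

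The other 7 members lay close together apart from BAD. BMF had a median of 18.1 CPM per kb, BCL2L1 of 17.1, BID of 14.3 and BCL2L11 of 9.81, and each of BCL2, BMF, BCL2L1 and BID overlapped in range with the gene next below it. BCL2L11 (lowest library 8.52) lay just above BIK (highest library 8.49), so the gap between them is within the spread of either gene. BIK, a BH3-only protein of the endoplasmic reticulum, stood at 7.46 and BAK1 at 6.54. BAD, a BH3-only protein silenced by growth factor signalling, was lowest at 0.654 (0.151 to 1.16). Exon lengths for this scale came from GENCODE 29, and the annotation used for counting may differ from it.

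**Figure D1:**
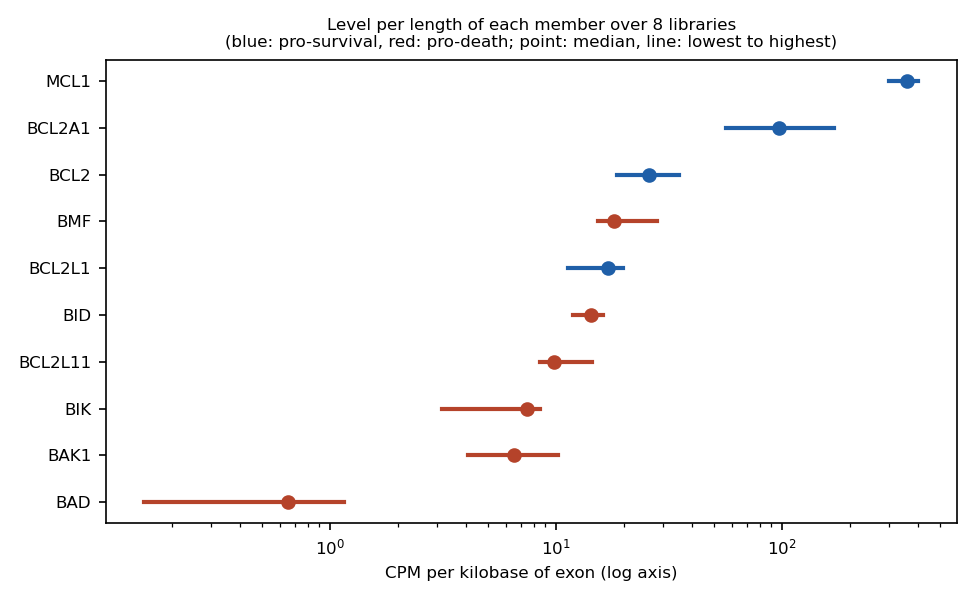
Level of each of the 10 members per kilobase of exon (CPM per kb, log axis), with the median of 8 libraries as a point and the lowest to highest library as a line, blue for pro-survival and red for pro-death genes. MCL1 (median 359) and BCL2A1 (97.2) lie apart from the rest and BAD (0.654) lies lowest.

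Counted together, pro-survival genes took 88.0% to 91.4% of the members' counts in each library, and MCL1 alone took 63.3% to 72.0%. The share of the survival genes was 89.0% and 89.2% in control, 89.6% and 89.0% at 24 h, 88.0% and 91.0% at 3 days and 88.9% and 91.4% at 7 days. At 3 and 7 days replicate 1 was below the earlier libraries and replicate 2 above them, so the shares of the groups overlapped.

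The comparisons with control ask how the balance of survival and death genes stood at 24 h of chromium and in the days that followed. At 24 h 0 of 10 members stood apart from control, against 23.9% of all genes. At 3 and 7 days BCL2A1 and BCL2L11 lay below every control and 24 h library (2 of 10, against 7.43% of all genes). BCL2A1 was at 0.529 times its earlier level and BCL2L11 at 0.741 times, counting the mean of the 3 and 7 day groups against that of the control and 24 h groups. BAK1, the pore former, stood higher than control at both later times, at 1.58 and 1.49 times, but overlapped with the 24 h libraries. It was the 1 member of 10 above control without overlap at 3 and at 7 days, against 16.7% and 16.6% of all genes. Below control without overlap were 3 of 10 at 3 days (17.2% of all genes) and 4 of 10 at 7 days (17.9%). These included the pro-death gene BMF at both times, at 0.767 and 0.754 times, which also overlapped with the 24 h libraries. The pro-death gene BIK was among them at 7 days, at 0.554 times. Apart from BCL2A1 and BCL2L11, no member had all later libraries apart from all earlier ones.

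No member passed the threshold of the main test, edgeR's quasi-likelihood test with Benjamini-Hochberg adjustment over 12536 genes. At 24 h, 0 of 10 members were called (0% of all genes), with log2 fold changes from -0.26 to 0.21. In 0 of 10 members did the 2 libraries at 24 h lie apart from those of control, against 23.9% of all genes. None had an unadjusted p under 0.05, beside 0.175% of genes, and DESeq2 and limma-voom called none of them at 24 h, 3 days or 7 days.

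At 3 days 0 of 10 members were called (0% of all genes by edgeR's quasi-likelihood test, lowest adjusted p of a member 0.843). At that time 1 member, BCL2A1, was lower at an unadjusted p under 0.05, against 3.13% of all genes. BAK1 did not overlap with control on the higher side (1 of 10, against 16.7% of genes), and BCL2A1, BCL2L11 and BMF did not overlap with it on the lower side (3 of 10, against 17.2%).

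At 7 days 0 of 10 were called (0% of all genes, lowest adjusted p 0.851 by edgeR's quasi-likelihood test), and BCL2A1 alone was lower at an unadjusted p under 0.05, against 3.09% of genes. BAK1 again lay above control without overlap (1 of 10, against 16.6%), and BCL2A1, BCL2L11, BIK and BMF lay below it (4 of 10, against 17.9%). The 3 and 7 day comparisons share their control libraries and are not independent of each other. Between 7 and 3 days 0 of 10 members were called (0% of genes), and BID was the 1 member whose groups did not overlap, on the lower side (6.41% of genes). When the 3 exposed groups were tested together, edgeR's quasi-likelihood test called 0 of 10 members and 0% of all genes, with BCL2A1 alone at an unadjusted p under 0.05 (0.0104, beside 3.56% of genes).

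The contrast with the most libraries set the 4 at 3 and 7 days against the 4 of control and 24 h. Its tests treated the 8 libraries as independent. Replicate differences over all genes correlated at 0.81 between 3 and 7 days and at -0.60 between control and 24 h, so this may not hold. In this contrast edgeR's quasi-likelihood test called 0 of 10 members and 0.00798% of all genes, a single gene (ITGA1). BCL2A1 and BCL2L11 were lower at an unadjusted p under 0.05 (2 of 10, against 7.24% of genes). The same 2 genes had every later library below every earlier one (2 of 10, against 7.43%), and 0 of 10 had every later library above (5.93%). DESeq2, run as an alternative, called 1 of 10 members, BCL2A1, and 2.25% of the 12325 genes to which it gave an adjusted p, while limma-voom called 0 of 10.

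The median log2 difference in this contrast was -0.21 over the 4 survival genes and -0.16 over the 6 death genes, beside 0.01 over all genes tested. The middle 80% of all genes spanned -0.60 to 0.54, and BCL2A1 and BIK lay outside that span.

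**Figure D2:**
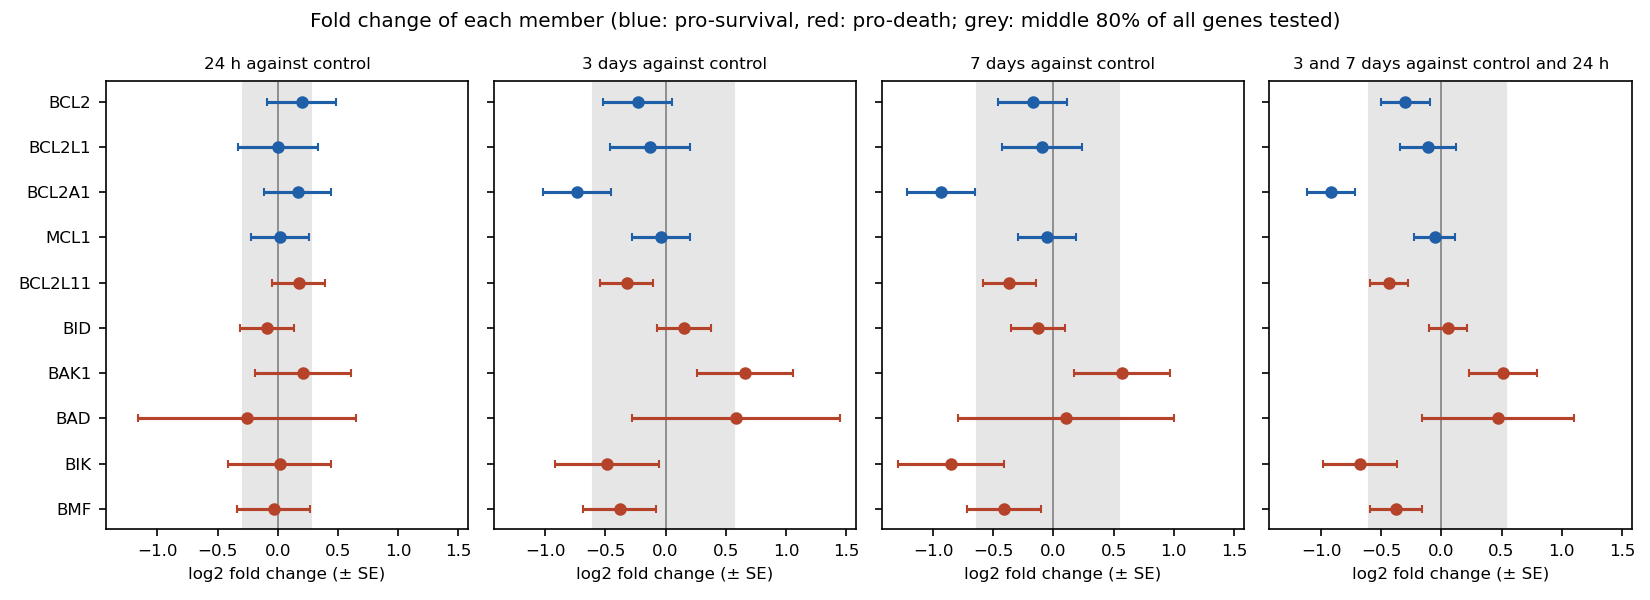
Log2 fold change of each member with its standard error in 4 comparisons, blue for pro-survival and red for pro-death genes, over a grey band that holds the middle 80% of all genes tested. BCL2A1 lies left of the band at 3 days (-0.74), at 7 days (-0.94) and in the later against the earlier libraries (-0.92). BAK1 (0.66) and BAD (0.58) lie right of it at 3 days and BAK1 (0.57) at 7 days. BIK lies left of it at 7 days (-0.85) and in the later against the earlier libraries (-0.68).

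BCL2A1 (also called A1 or BFL1) encodes a short-lived survival protein of blood cells. Its level was 125 and 148 CPM in the control libraries, 186 and 120.0 CPM at 24 h, 71.9 and 91.7 CPM at 3 days, and 61.6 and 80.9 CPM at 7 days. The highest later library thus lay below the lowest earlier one, and the later groups overlapped with each other. The log2 difference from control was -0.74 ± 0.28 (SE) at 3 days and -0.94 ± 0.28 at 7 days, with unadjusted p = 0.0299 and 0.0102 and adjusted p = 0.843 and 0.851 by edgeR's quasi-likelihood test. For the later against the earlier libraries it was -0.92 ± 0.20, with unadjusted p = 0.00163 and adjusted p = 0.175 in the same edgeR test.

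An exact permutation test of BCL2A1's log2 CPM over the 4 groups, with 105 ways of dividing 8 libraries into pairs, gave p = 0.0857, where the smallest this design can give is 0.00952. With DESeq2 the log2 difference was -0.91 ± 0.23 with an adjusted p = 0.00924, and over the 19 alternatives tried the adjusted p ran from 0.00924 to 0.715 and was under 0.05 in 4. The contrast was itself chosen with earlier results of these data known. Replicate 1 at 3 and 7 days, low in reads under no feature (39.4% and 36.5%), had the lower BCL2A1 level of each later group, and the part of this share was not tested. Without both later libraries numbered 1 the log2 difference was -0.74 ± 0.22, and without both numbered 2 it was -1.11 ± 0.22. In RNA from a whole culture, fewer cells with the transcript and less transcript per cell cannot be told apart.

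BCL2, the founding member of the family and a stable survival protein, was at 264 and 358 CPM in control, 414 and 300.4 CPM at 24 h, 219 and 310.3 CPM at 3 days and 242 and 311 CPM at 7 days. Each of the 4 groups overlapped with the others. Control had a mean of 311 ± 65.9 CPM (SD, n = 2) and the 24 h group of 357 ± 80.3 CPM. The later means were 265 ± 64.4 CPM (3 days) and 276 ± 48.9 CPM (7 days). The later against the earlier libraries gave a log2 difference of -0.30 ± 0.20 with an adjusted p = 0.48 by edgeR's quasi-likelihood test.

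MCL1, a survival protein that cells degrade quickly, had group means between 1415 and 1488 CPM. It was 1446 and 1491 CPM in control, 1560.3 and 1416 CPM at 24 h, 1221 and 1644 CPM at 3 days and 1309.6 and 1521 CPM at 7 days. The lowest and the highest library were both taken at 3 days. Its log2 difference from control was 0.02 ± 0.24 at 24 h, -0.04 ± 0.24 at 3 days and -0.05 ± 0.24 at 7 days.

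BCL2L1, which encodes BCL-XL, was at 54.0 and 43.4 CPM in control, 49.0 and 48.6 CPM at 24 h, 56.8 and 32.4 CPM at 3 days and 56.0 and 35.3 CPM at 7 days. Replicate 1 at 3 and 7 days was above every control and 24 h library and replicate 2 below them, so the wider spread of the later groups held no common direction. The log2 difference was between -0.13 and 0.00 in each comparison with control, with standard errors of 0.33.

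**Figure D3:**
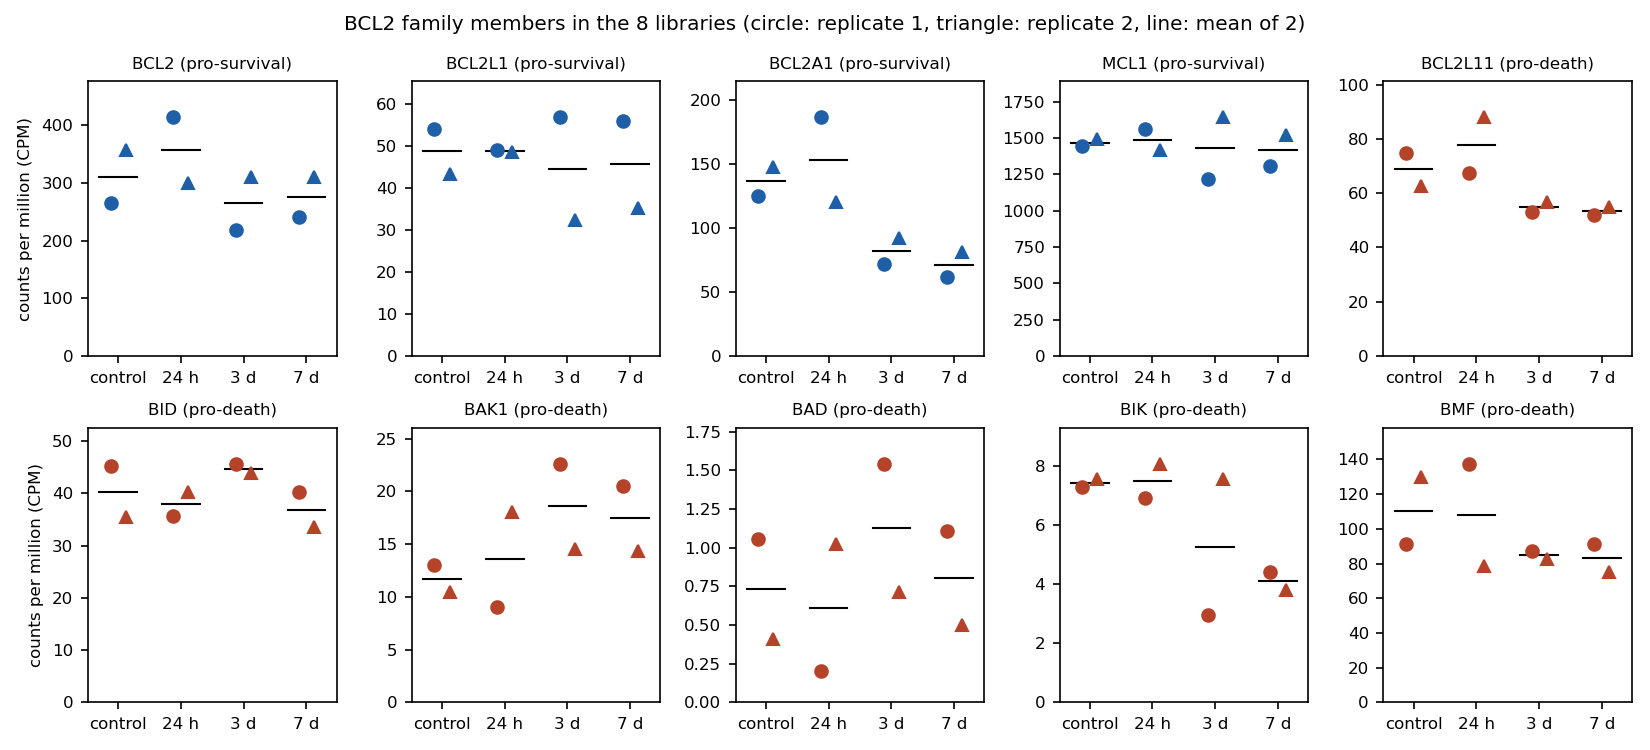
Level of each member in the 8 libraries (CPM, axes from 0), with circles for replicate 1, triangles for replicate 2 and a line at the mean of 2. In the BCL2A1 and BCL2L11 panels all 4 later points lie below all 4 earlier ones (61.6 to 91.7 against 120.0 to 186 CPM, and 51.9 to 56.7 against 62.8 to 88.0 CPM).

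BCL2L11 encodes BIM, a BH3-only activator that binds every survival member and is a main executioner of B cells deprived of survival signals. Its level was 74.8 and 62.8 CPM in control, 67.4 and 88.0 CPM at 24 h, 53.1 and 56.7 CPM at 3 days and 51.9 and 54.8 CPM at 7 days. The 4 later libraries lay close together and below all earlier ones. The log2 difference was -0.32 ± 0.22 at 3 days and -0.37 ± 0.22 at 7 days from control, and -0.43 ± 0.16 for the later against the earlier libraries (unadjusted p = 0.0237, adjusted p = 0.311 by edgeR's quasi-likelihood test). The exact permutation test over the 4 groups gave p = 0.114.

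BCL2L11 shares its locus with MIR4435-2HG, a long noncoding RNA on the opposite strand in GENCODE 29 that the files list as LOC541471. That RNA was at 1.31 to 3.53 CPM, with a log2 difference of -0.80 ± 0.35 for the later against the earlier libraries (adjusted p = 0.355 by edgeR's quasi-likelihood test). Its log2 CPM went with that of BCL2L11 at r = 0.976 over the 8 libraries, given as a description. The strand setting of the counting is not given in the sources used here, so reads of the 2 genes where they overlap cannot be told apart.

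BMF, a BH3-only protein held at the cytoskeleton in healthy cells, was at 91.3 and 129.7 CPM in control, 138 and 78.4 CPM at 24 h, 87.1 and 82.4 CPM at 3 days and 91.1 and 75.4 CPM at 7 days. The highest later library (91.1 CPM) lay just below the lower control library (91.3 CPM), and the 24 h group held both the highest library and 1 that lay below 3 later ones. The log2 difference from control was -0.38 ± 0.31 at 3 days and -0.41 ± 0.31 at 7 days.

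BIK was at 7.29 and 7.58 CPM in control, 6.94 and 8.09 CPM at 24 h, 2.98 and 7.58 CPM at 3 days and 4.42 and 3.82 CPM at 7 days. These levels rest on 29 to 87 counts per library. Of the later libraries, 3 were low and replicate 2 at 3 days, with 85 counts, was as high as control. The log2 difference from control was -0.49 ± 0.43 at 3 days and -0.85 ± 0.44 at 7 days (adjusted p = 0.848 and 0.851 by edgeR's quasi-likelihood test). Without replicate 1 at 3 days the value at 3 days was 0.03, and without replicate 2 at 3 days it was -1.32.

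BAK1 was at 13.0 and 10.4 CPM in control, 9.05 and 18.0 CPM at 24 h, 22.6 and 14.5 CPM at 3 days and 20.5 and 14.4 CPM at 7 days. Both later groups lay above control, and the 24 h group held the lowest library of all and 1 that was above replicate 2 of each later group. The log2 difference from control was 0.66 ± 0.40 at 3 days and 0.57 ± 0.40 at 7 days, and 0.51 ± 0.28 for the later against the earlier libraries (adjusted p = 0.411 by edgeR's quasi-likelihood test). BAK1 has processed pseudogenes of near-identical sequence, BAK1P1 and BAK1P2, and neither name is among the gene symbols counted. Reads could have been placed on these copies and lost to BAK1, so its level is uncertain.

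BID, which caspase-8 cleaves to link death receptors to mitochondria, was at 45.2 and 35.4 CPM in control, 35.6 and 40.3 CPM at 24 h, 45.6 and 43.8 CPM at 3 days and 40.2 and 33.6 CPM at 7 days. Its groups stayed within 33.6 to 45.6 CPM. The 3 day group lay above the 7 day group without overlap, with a log2 difference of -0.28 ± 0.23 for 7 against 3 days. BAD counts were 12 and 4 in control, 2 and 11 at 24 h, 15 and 8 at 3 days and 10 and 5 at 7 days. At this depth no difference between groups was detectable for BAD, whose standard errors were 0.86 to 0.91 on the log2 scale in the comparisons with control.

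The 2 libraries of a group often differed in these genes, and for 6 members the difference followed the share of reads under no feature, a pattern sought after the values were seen. In the library of each group with the smaller share, BCL2, BCL2A1 and MCL1 were lower and BID, BAK1 and BAD higher, in 4 of 4 groups each. Of the 12536 genes tested, 2775 (22.1%) were likewise higher and 2769 (22.1%) lower in 4 of 4 groups, beside 3 members in each direction. The pattern was thus common over all genes and was not particular to the members. Gaps within a group reached 0.63 on the log2 scale for BCL2A1, 0.98 for BAK1 and 1.62 for BAD. BCL2L11, BIK and BMF followed the share in 2 of 4 groups and BCL2L1 in 3. The part of this share in the differences between groups was not tested. The ratio of BCL2A1 to BCL2L1 counts, 2 survival genes on opposite sides of this pattern, was 2.32 and 3.40 in control, 3.80 and 2.47 at 24 h, 1.27 and 2.83 at 3 days and 1.10 and 2.29 at 7 days. In replicate 2 it lay within (2.83) or just below (2.29) the earlier range, and in replicate 1 further below it. The ratio moves with both genes. BCL2L1 was at 32.4 and 35.3 CPM in replicate 2 and 56.8 and 56.0 CPM in replicate 1, against 43.4 to 54.0 CPM earlier. BCL2A1 in replicate 2 was at 91.7 and 80.9 CPM, against 120.0 to 186 CPM earlier. The ratio therefore does not describe BCL2A1 alone.

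The balance of survival and death genes can be read as a ratio of counts within each library, which needs no scaling between libraries. BCL2A1 to BCL2L11 counts stood at 1.67 and 2.35 in control, 2.76 and 1.36 at 24 h, 1.35 and 1.62 at 3 days and 1.19 and 1.48 at 7 days, so the groups overlapped. MCL1 to BCL2L11 counts stood at 19.3 and 23.8 in control and 23.1 and 16.1 at 24 h. At 3 days they stood at 23.0 and 28.96, and at 7 days at 25.2 and 27.8. Both 7 day libraries lay above all 4 earlier ones, while the 3 day group overlapped with them. BCL2 to BCL2L11 counts ran from 3.41 to 6.14 in the earlier libraries and from 4.13 to 5.67 in the later ones, so they overlapped. How often such ratios separate over all genes was not computed. Across the 8 libraries BCL2A1 and BCL2L11 had r = 0.67 in log2 CPM, BCL2 and BAK1 r = -0.89, and MCL1 and BCL2L1 r = -0.79, all given as descriptions over libraries that differ in depth and in reads under no feature.

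For each member but BID, the genes most like it in pattern were found by Pearson's r of log2 CPM over the 8 libraries. BCL2A1 was closest to ALPK1 (r = 0.995), CYP4F35P (0.991) and ZNF43 (0.990), and 355 of 12535 genes exceeded 0.9. BCL2L11 was closest to GAS6-AS1 (0.979), LOC541471 (0.976) and ITGB8 (0.965), with 55 genes above 0.9. BCL2 was closest to DCUN1D4, ETNK1 and ERBB2IP (0.992 to 0.998, 575 genes above 0.9), and MCL1 to TMCC1, ALG10 and SLC35F5 (0.984 to 0.992, 463 genes). BCL2L1 was closest to DTX4, PDCD2L and EMR1 (0.963 to 0.987). Among death genes, BAK1 was closest to MTFR2, GRWD1 and TXNDC17 (0.971 to 0.977), BAD to HIC1, COX20 and GLRX5 (0.981 to 0.996) and BIK to SLC25A32, VMAC and EHHADH (0.949 to 0.989). BMF was closest to ZFAND3, PDGFA and KLK1 (0.967 to 0.971). No other member was among the closest 3 of any of these 9.

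The DNA before the start of BCL2A1 and BCL2L11 is shown because these were the members with all later libraries below all earlier ones. Both are the 250 bases before the RefSeq start on the gene's own strand, in build GRCh38.p14, with motif matches in capitals.
BCL2A1 (chr15:79971197-79971446, minus strand): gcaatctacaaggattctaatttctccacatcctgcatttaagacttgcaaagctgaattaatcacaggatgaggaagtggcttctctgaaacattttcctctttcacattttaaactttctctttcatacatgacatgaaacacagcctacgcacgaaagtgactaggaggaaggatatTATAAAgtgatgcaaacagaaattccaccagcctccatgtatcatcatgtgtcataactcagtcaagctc
BCL2L11 (chr2:111120664-111120913, plus strand): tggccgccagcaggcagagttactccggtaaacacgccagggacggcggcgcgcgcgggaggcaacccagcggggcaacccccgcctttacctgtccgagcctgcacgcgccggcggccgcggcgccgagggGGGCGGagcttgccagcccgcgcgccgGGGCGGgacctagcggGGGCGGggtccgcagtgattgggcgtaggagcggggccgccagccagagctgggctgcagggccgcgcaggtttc
The BCL2A1 stretch has a G and C content of 38.8%, and its capitals mark a TATA box (TATAAA) that begins 70 bases before the start. The BCL2L11 stretch has a G and C content of 76.8%, and its capitals mark 3 GC boxes (GGGCGG), which begin 118, 91 and 75 bases before the start.

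Motifs were sought on both strands in the promoters of the 8 members found in the RefSeq table, without MCL1 and BIK. The GC box was found in 5 of 8 members (42.6% of all 35116 promoters), the TATA box in 2 of 8 (10.7%), the E-box CACGTG in 0 of 8 (6.34%), and the NF-kB consensus in 1 of 8, BMF (9.96%). A match describes the letters only, and a window without one says nothing of a factor's use of the gene.

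Genes that act with the members were described from 6 lists, chosen with earlier results of these data known, of which the 4 genes with the smallest p in the joint test are named. Among the 13 other BCL2 relatives, 11 were tested, and in the later against the earlier libraries 7 were higher and 4 lower, with 0 called by edgeR's quasi-likelihood test and 5 at an unadjusted p under 0.05, which 14.2% of all genes reached. DESeq2 called 1 of the 11 (2.25% of all genes), BNIP3, a BH3-like protein of mitochondrial clearance. BNIP3 was at 108 and 141 CPM in control, 171 and 96.2 CPM at 24 h, 284 and 221 CPM at 3 days and 229 and 227 CPM at 7 days. All 4 later libraries lay above all earlier ones, with a log2 difference of 0.90 ± 0.22 (adjusted p = 0.201 by edgeR, 0.0164 by DESeq2).

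BBC3, which encodes the p53 target PUMA, was at 6.58 and 8.39 CPM in replicate 1 at 3 and 7 days and at 1.96 and 1.01 CPM in replicate 2, against 0.465 to 1.41 CPM in the earlier libraries. Its high values were thus held by the same 2 libraries that stood apart in reads under no feature. BCL2L12 gave a log2 difference of 0.69 ± 0.24 and BCL2L10, a survival relative, of -0.72 ± 0.26, and both had all later libraries on 1 side of the earlier ones. BOK (at most 3 counts in a library) and HRK (0 counts) fell below the filter on counts.

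Downstream of the mitochondria, 15 apoptosome and caspase genes were tested, of which 13 were higher and 2 lower in the later libraries, with a median log2 difference of 0.32 beside 0.01 over all genes. EdgeR's quasi-likelihood test and DESeq2 each called 0 of 15, and 3 had an unadjusted p under 0.05 (14.2% of all genes). APAF1, the scaffold of the apoptosome, was at 168 and 168 CPM in control, 177 and 179 CPM at 24 h, 274 and 229 CPM at 3 days and 278 and 198 CPM at 7 days, with every later library above every earlier one. CASP2 gave a log2 difference of 0.54 ± 0.19, HTRA2, a protease released from mitochondria, of -0.41 ± 0.16, and CASP9 of 0.34 ± 0.20.

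A list of 8 genes held inhibitors of apoptosis, brakes on death receptors and FADD, the adaptor that passes the death signal on to caspase-8. Of these 6 were lower and 2 higher, with 0 called by edgeR's quasi-likelihood test and 5 at an unadjusted p under 0.05 (14.2% of all genes). FADD, named after its value was seen, was among the 5 and on the higher side (log2 difference 0.39 ± 0.16). DESeq2 called 2 of the 8 (2.25% of all genes), both lower: BIRC3, a ubiquitin ligase of the TNF receptor complex, and TNFAIP3 (A20). BIRC3 was at 526 and 823 CPM in control, 987 and 643 CPM at 24 h, 269.8 and 379 CPM at 3 days and 327 and 370.2 CPM at 7 days. The later libraries lay below all earlier ones, with a log2 difference of -1.14 ± 0.23 (adjusted p = 0.149 by edgeR, 0.00118 by DESeq2). For TNFAIP3 the difference was -0.66 ± 0.16 (0.195 by edgeR, 0.0188 by DESeq2, both adjusted p). CFLAR, which blocks caspase-8, gave -0.52 ± 0.16 and BIRC5 (survivin) 0.91 ± 0.28.

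Of 8 receptors that feed death or survival signals to the family, 6 were higher and 2 lower, with 0 called by edgeR's quasi-likelihood test and 2 at an unadjusted p under 0.05 (14.2% of all genes). DESeq2 called 1 of the 8 (2.25% of all genes), CD40, a survival receptor of B cells, as lower. CD40 was at 42.4 and 55.1 CPM in control, 64.4 and 36.9 CPM at 24 h, 26.8 and 29.4 CPM at 3 days and 20.9 and 29.4 CPM at 7 days, a log2 difference of -0.90 ± 0.23 (adjusted p = 0.228 by edgeR, 0.0345 by DESeq2). The TRAIL receptors were high in replicate 1 only. TNFRSF10A was at 24.4 and 25.3 CPM in replicate 1 at 3 and 7 days and at 3.72 to 5.02 CPM in the other 6 libraries, and TNFRSF10B at 472 and 429 CPM against 179 to 243 CPM. TNFRSF13C, the BAFF receptor, ran from 1.66 to 14.2 CPM with all groups overlapping.

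Among 14 transcription factors known to act on these genes, 10 were lower and 4 higher, with 0 called by edgeR's quasi-likelihood test, 3 at an unadjusted p under 0.05 (14.2% of all genes), and 2 called lower by DESeq2 (2.25% of all genes), NFKB2 and REL. NFKB2 was at 147 and 151 CPM in control, 155 and 128 CPM at 24 h, 73.6 and 78.5 CPM at 3 days and 74.9 and 76.0 CPM at 7 days. The 4 later libraries lay close together and below all earlier ones, with a log2 difference of -0.94 ± 0.14 (adjusted p = 0.112 by edgeR, 6.29e-05 by DESeq2). REL gave -0.81 ± 0.18 (adjusted p = 0.177 by edgeR, 0.0186 by DESeq2), RELB -0.53 ± 0.21 and CREB1 -0.46 ± 0.22. Earlier results of these data on NF-kB genes were known when this list was drawn up, so it adds no independent evidence.

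Of 19 genes that modify or degrade the members' proteins, 18 were tested, and 12 were higher and 6 lower, with 0 called by edgeR's quasi-likelihood test or DESeq2 and 3 at an unadjusted p under 0.05 (14.2% of all genes). UBE2C, a ubiquitin conjugating enzyme of mitosis, gave a log2 difference of 0.72 ± 0.24, PIM1, a kinase that phosphorylates BAD, 0.47 ± 0.18, YWHAE, a 14-3-3 protein, 0.53 ± 0.21, and AKT1 0.29 ± 0.16. TRIM17, which targets MCL1, had 0 counts in every library.

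Summed levels of the cell type markers overlapped between the earlier and the later groups for B, T and NK, and myeloid cells, and did not overlap for stromal or epithelial cells. B cell markers summed to 3197 to 3549 CPM in control, 3065 to 3692 CPM at 24 h, 2901 to 3118 CPM at 3 days and 2819 to 2964 CPM at 7 days. T and NK cell markers summed to 1.23 to 3.51 CPM in the earlier groups and 2.61 to 4.01 CPM in the later ones, and myeloid markers to 8.61 to 14.3 CPM and 5.18 to 9.76 CPM. Stromal or epithelial markers summed to 8.60 to 14.0 CPM in the earlier groups and 4.42 to 7.50 CPM in the later ones. Of all these markers edgeR's quasi-likelihood test called none in the later against the earlier libraries. DESeq2 called CR2, of B cells, and COL1A1, of stromal cells, both lower (2.25% of all genes were called). Their log2 differences were -1.06 ± 0.25 and -2.29 ± 0.59. COL1A1 belongs to the list of which 0 of 8 markers reached 10 CPM, so its difference rests on a low level. Their part in the differences of the members was not tested.

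**Figure D4:**
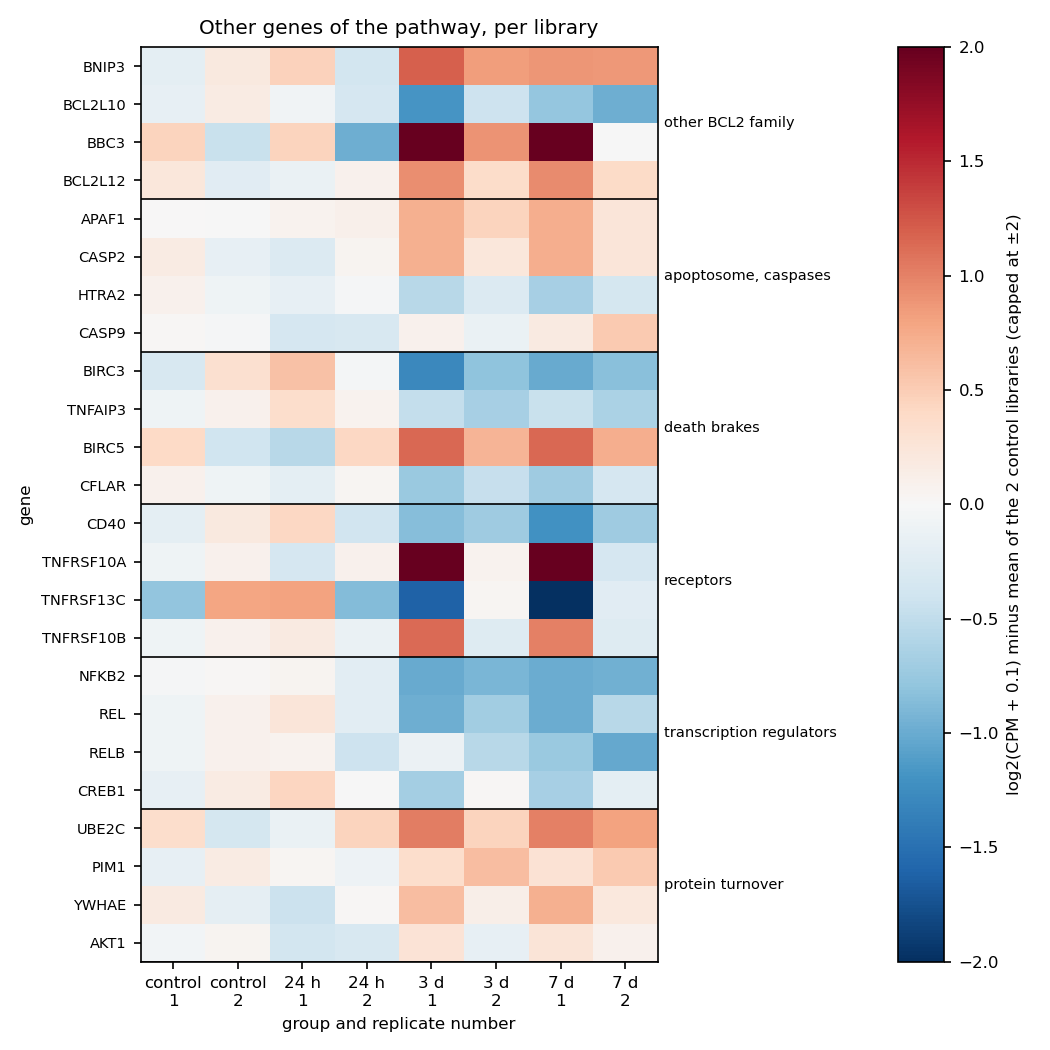
Level of 24 pathway genes (rows, grouped by list) in the 8 libraries (columns, by group and replicate), as log2(CPM + 0.1) minus the mean of the 2 control libraries, with colours capped at 2 in either direction. NFKB2, BIRC3 and CD40 are blue and BNIP3 and APAF1 red in all 4 later libraries, while TNFRSF10A, TNFRSF10B and BBC3 are deepest red in replicate 1 at 3 and 7 days.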

How the data were processed

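RNA-seq read counts per gene symbol were analysed in 8 libraries, 4 groups of 2. The deposited counts are whole numbers, in a separate table for each library, with 5 summary entries that name no gene. Those entries held 42.6% to 57.5% of a table and were left out. The submitters' processing notes name the builds GRCh37 and hg19 and the tools Bowtie2, Trim Galore, SAMtools, R 3.2.3 and DESeq2 1.8.1. How reads were assigned to genes, and whether by strand, is not given in the sources used here.

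EdgeR 4.0.16 (R 4.3.3) took all 8 libraries in a single fit with no covariate beside the group, after filterByExpr (minimum count 10, minimum total 15) and TMM scaling. The quasi-likelihood test (glmQLFit, glmQLFTest) was adjusted by Benjamini-Hochberg over 12536 genes and read at 0.05. The biological coefficient of variation common to all genes was 0.276. Standard errors come from the F statistic, and log2 CPM used a prior count of 2. The procedure was tested on simulated data, with libraries drawn independently and planted changes larger than that of any member. That test therefore does not cover changes of the members' size or libraries that vary together. Alternatives included limma-voom (limma 3.58.1) and DESeq2 1.42.0. Members, lists, contrasts and named genes were chosen with earlier results of these data known. All 10 members are named, with up to 4 genes per pathway list by the joint test's p and the 3 genes closest to each member in pattern. Those closest to BID are not reported here. ITGA1, FADD and CASP6 were named after their values were seen.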

Additional observations from a re-analysis of the deposited data

How the results depend on the processing

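The 24 h and the 7 against 3 day comparisons called 0 genes in every alternative. At 3 days the 0 genes called became 9 with DESeq2, 11 without a count filter, and 334 without both later libraries numbered 2. At 7 days these counts were 15, 16 and 374, and in the joint test 65, 67 and 438. For the later against the earlier libraries the 1 gene called became 277 with DESeq2, 489 without a filter, 3824 without both later libraries numbered 2, 0 without both numbered 1 and 0 with any single library left out. The settings that left out a pair of libraries were chosen after seeing the data. The replicate number as a block gave 0, 0, 0, 0 and 1 calls in the 24 h, 3 day, 7 day, 7 against 3 day and later against earlier comparisons and 0 in the joint test. The numbers were not taken to pair the samples, because replicate differences did not correlate above 0.1 in every pair of groups. They correlated at -0.60 between control and 24 h, 0.34 and 0.32 between control and 3 or 7 days, -0.32 and -0.31 between 24 h and 3 or 7 days, and 0.81 between 3 and 7 days. A block with the 24 h numbers crossed, also chosen after seeing the data, called 6, 5, 1101 and 15 genes at 3 days, at 7 days, in the later against the earlier libraries and in the joint test. The causes of these shifts were not tested.

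Of 785 alternative values of the members, 728 kept direction and side of the threshold, 52 changed sign, and 5 passed the threshold: BCL2A1 in the later against the earlier libraries with DESeq2, without a filter (adjusted p = 0.0116), with crossed numbers (0.0105) and without both libraries numbered 2 (0.0157), and BIK in the last of these (0.0216). BCL2A1, BCL2L11, BAK1 and BMF at 3 days, at 7 days and in the later libraries changed sign in no alternative.

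Most of the members that changed sign had log2 differences near 0. With single libraries left out, the 24 h values ran from -0.0509 to 0.43 for BCL2, -0.15 to 0.17 for BCL2L1, -0.18 to 0.45 for BCL2A1, -0.0532 to 0.0856 for MCL1, -0.0300 to 0.35 for BCL2L11, -0.25 to 0.0976 for BID, -0.38 to 0.62 for BAK1, -1.82 to 0.58 for BAD, -0.10 to 0.12 for BIK and -0.50 to 0.31 for BMF. At 3 days they ran from -0.51 to 0.000567 for BCL2, -0.59 to 0.22 for BCL2L1, -0.27 to 0.16 for MCL1, -0.0159 to 0.34 for BID, -0.055 to 1.42 for BAD and -1.32 to 0.0304 for BIK. At 7 days they ran from -0.37 to 0.0624 for BCL2, -0.47 to 0.22 for BCL2L1, -0.15 to 0.051 for MCL1, -0.29 to 0.0588 for BID and -0.55 to 0.94 for BAD. In the later against the earlier libraries they ran from -0.34 to 0.0619 for BCL2L1, -0.17 to 0.0471 for MCL1 and -0.0278 to 0.15 for BID. Without both libraries numbered 1, values changed sign for BCL2 (0.00492 at 3 days, 0.00129 at 7 days), MCL1 (0.17, 0.0538 and, later against earlier, 0.10), BAD (-0.0527, -0.55 and -0.18), BIK (0.0378 at 3 days) and BID (-0.0245, later against earlier). Without both numbered 2 they did so for BCL2L1 (0.23, 0.22 and 0.22) and BID (0.0136 at 7 days). BCL2L1 at 24 h was -0.0127 with upper-quartile scaling and -0.000523 without a filter. The members with the fewest counts were BAD (2 to 15 in a library) and BIK (29 to 87), and BAD has no value under the stricter filter.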
